A study of Mus musculus with 2 samples.

Results

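Among the intervals enriched by an ARID4B antibody in newborn mouse testis chromatin, 747 of 6632 (11.3%, 95% Clopper-Pearson interval 10.5 to 12.05%) stood alone inside a gene, a short way in from its end. They were chosen by position only. The midpoint lay inside a RefSeq gene record (the span from the lowest to the highest base of all annotated transcripts of a gene), over 1000 and at most 5000 bp from the nearest end of any record, and no other interval lay within 5000 bp edge to edge. The chromatin came from 1 pool of 108 testes of wild type male mice at postnatal day 1.5, of a hybrid C57BL6/J and 129/SvEv background. It was precipitated with an antibody against ARID4B in 1 library, and input DNA with no antibody, from the same kind of testes, formed the other. No value has a replicate, input was the only control, and the read depth is unknown. No RNA was measured, so the tissue label could not be checked against markers, and whole testes were used, so the cell type behind an interval is not known. Intervals of 1 library are not replicates, so no test was run over them. All intervals on shares and medians are 95% intervals and cover counting error only.

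ARID4B is a chromatin protein with an AT-rich interaction domain. It belongs to the SIN3-histone deacetylase corepressor complex, which is brought to gene promoters by DNA-binding factors and removes acetyl groups from histone tails. Many mammalian genes have several promoters, and a gene record then extends upstream of those in the middle, so that a promoter can lie inside its own record. Promoters of widely used and developmental genes mostly lie in CpG islands, stretches where the dinucleotide CG has escaped the loss it suffered elsewhere in the genome.

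The starts below show a frequent arrangement: where a member lay inside a record, an annotated start of transcription often lay under it, in sequence dense in CG. Members held a listed start less often than intervals of the whole list, as given below. Each line gives 150 bases before and 30 bases from the start onward, read 5′ to 3′ on the gene's strand from RefSeq's GRCm38.p6 table, with every CG in capitals. The printed stretches lie at chr14:25459035-25459214 (Zmiz1), chr8:11558260-11558439 and chr8:11555612-11555791 (Ing1), chr11:98795366-98795545 and chr11:98798504-98798683 (Msl1), chr11:3290307-3290486 and chr11:3288981-3289160 (Patz1), chr8:70697589-70697768 (Jund) and chr10:80755053-80755232 (Dot1l), all on the plus strand, and at chr1:178337786-178337965 on the minus strand (Hnrnpu). Zmiz1 and Hnrnpu have 1 listed start each, which lay inside the record and under the interval. For Ing1, Msl1 and Patz1 a start under the interval is set beside a start of the same gene outside it. Jund and Dot1l are hosts with their listed start outside the interval, one poor and one rich in CG.
Zmiz1, start inside the interval: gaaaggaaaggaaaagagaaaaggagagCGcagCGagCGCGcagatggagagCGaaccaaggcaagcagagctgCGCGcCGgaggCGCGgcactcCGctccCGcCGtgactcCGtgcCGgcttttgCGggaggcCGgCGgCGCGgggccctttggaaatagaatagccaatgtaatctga
Hnrnpu, start inside the interval: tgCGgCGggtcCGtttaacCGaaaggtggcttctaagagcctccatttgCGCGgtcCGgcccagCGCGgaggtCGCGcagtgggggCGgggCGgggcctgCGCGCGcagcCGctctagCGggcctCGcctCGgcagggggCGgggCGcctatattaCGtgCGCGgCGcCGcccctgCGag
Ing1, start inside the interval: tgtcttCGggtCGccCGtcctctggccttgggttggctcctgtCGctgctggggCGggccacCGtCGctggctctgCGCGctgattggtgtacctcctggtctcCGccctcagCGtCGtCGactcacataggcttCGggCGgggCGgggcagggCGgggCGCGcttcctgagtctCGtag
Ing1, outermost start: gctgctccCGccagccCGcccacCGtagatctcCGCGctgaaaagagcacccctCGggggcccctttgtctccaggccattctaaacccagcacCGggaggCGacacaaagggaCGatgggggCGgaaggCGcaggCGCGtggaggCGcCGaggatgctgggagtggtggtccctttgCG
Msl1, start inside the interval: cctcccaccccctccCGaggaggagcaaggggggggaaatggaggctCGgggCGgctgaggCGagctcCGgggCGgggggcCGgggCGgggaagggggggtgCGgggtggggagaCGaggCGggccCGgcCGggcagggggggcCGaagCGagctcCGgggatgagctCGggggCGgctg
Msl1, start outside the interval: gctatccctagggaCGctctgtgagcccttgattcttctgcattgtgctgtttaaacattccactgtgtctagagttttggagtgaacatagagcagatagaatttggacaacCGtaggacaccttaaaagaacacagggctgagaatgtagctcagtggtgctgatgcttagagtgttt
Patz1, start inside the interval: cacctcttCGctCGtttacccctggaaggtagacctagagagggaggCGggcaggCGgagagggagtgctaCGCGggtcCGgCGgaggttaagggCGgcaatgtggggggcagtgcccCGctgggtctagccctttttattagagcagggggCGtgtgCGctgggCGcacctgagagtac
Patz1, start at the record end: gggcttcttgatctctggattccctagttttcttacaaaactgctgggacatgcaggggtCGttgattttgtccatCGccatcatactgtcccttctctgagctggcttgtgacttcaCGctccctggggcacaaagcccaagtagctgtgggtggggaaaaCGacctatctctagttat
Jund, start outside the interval: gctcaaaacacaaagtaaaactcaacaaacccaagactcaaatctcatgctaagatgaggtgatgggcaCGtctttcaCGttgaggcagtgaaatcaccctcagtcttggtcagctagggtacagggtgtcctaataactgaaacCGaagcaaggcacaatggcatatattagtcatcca
Dot1l, start outside the interval: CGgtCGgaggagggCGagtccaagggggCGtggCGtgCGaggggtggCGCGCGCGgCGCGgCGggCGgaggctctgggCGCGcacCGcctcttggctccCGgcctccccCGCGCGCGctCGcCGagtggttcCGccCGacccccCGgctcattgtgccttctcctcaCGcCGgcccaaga

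The ratio of observed to expected CG, over 250 bases before and 50 after the start, was 1.03 at Zmiz1 and 1.06 at Hnrnpu. At Ing1, which encodes a histone-reading subunit of the SIN3 complex, it was 0.92 under the interval. The 4 starts of Ing1 outside it had 0.69 (the outermost, at the record end), 0.89, 0.86 and 0.96, the last above the start held. At Msl1, the scaffold gene of a histone H4 acetyltransferase complex, it was 0.65 under the interval and 0.45 at the other start, whose GC content was 42.7% against 79.3%. At Patz1, a zinc finger factor gene, it was 0.89 under the interval and 0.61 at the record end. Starts outside an interval differed widely, with 0.18 at Jund and 1.12 at Dot1l, and so did starts under one, with 0.60 at Pfn1 and 0.83 at Septin11.

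Scores are the authors' own evidence values for each interval, printed as deposited and used within this list only. The highest, 1160.13, was at chr3:58414360-58417583 in Tsc22d2, a gene of the TSC22 leucine zipper family. Next came 1131.25 at chr12:86881651-86885161 in Irf2bpl, a relative of the corepressors that bind interferon regulatory factor 2, and 1114.18 in Gata6, a zinc finger factor of gonadal somatic cells. The widest member (5553 bp, score 964.78) covered chr7:100926834-100932386 in Arhgef17, a gene of a guanine nucleotide exchange factor. Mafa, a bZIP factor gene, had 876.04 (chr15:75745831-75748252), and Zmiz1, a PIAS-like coactivator gene, had 821.23 (chr14:25458623-25461883). The AP-1 gene Jund had 780.89 (chr8:70698317-70700625) and Vav2, another exchange factor gene, had 745.36 (chr2:27424996-27427310). Ppp1r9b, the gene of the phosphatase scaffold spinophilin, had 705.07 (chr11:94991102-94993441). Nr5a1, the nuclear receptor gene needed for gonad formation, had 695.01 (chr2:38709974-38712896).

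Below these 10 came a pair of cytokine signalling inhibitors, Socs2 (669.58, chr10:95414055-95417901) and Socs3 (658.13, chr11:117966423-117969832). Ing1 had 634.44 (chr8:11556774-11558838), the actin-binding profilin gene Pfn1 628.39 (chr11:70653439-70656684) and Msl1 561.7 (chr11:98794317-98796976). Hnrnpu, a nuclear RNA-binding protein gene, had 560.4 (chr1:178336111-178338205), and Septin11, a GTP-binding filament protein gene, 534.97 (chr5:93092445-93094830). The rest of the first 25 were Ahdc1 (512.84), Cpeb2 (511.52), Wnk1 (498.96), Fzd2 (490.82), Axin2 (490.18), Srsf1 (480.57), Fasn (470.51) and Fam171a2 (454.07). They include a translational regulator (Cpeb2), a kinase of ion transport (Wnk1), a Wnt receptor and a Wnt feedback inhibitor (Fzd2 and Axin2), a splicing factor (Srsf1) and fatty acid synthase (Fasn).

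As a group the members were neither strong nor weak. Their median score was 126.0 (118.3 to 132.3, n = 747), against 125.0 over the whole list, 126.4 in the 5109 whose midpoint was at most 1 kb from a record end, 121.5 in the 314 gene-body intervals at the same depth that had a neighbour within 5 kb, and 105.9 in the 427 intervals over 5 kb from any end. Each decile of the list by score held between 10.1 and 13.7% members. Their median width was 1141 bp (1110 to 1178), against 1084 bp over the list, and 66 members (8.84%) were 2 kb or wider, against 5.11% of the list. Score and width went together (Spearman's correlation 0.62 across members, which share 1 library), while the correlation of score with distance from the record end was -0.15. By chromosome the share of intervals that were members ran from 7.73% on chromosome 13 to 17.2% on X, where there were 5 of 29.

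Nearly all members lay in protein-coding genes. Of the 747, 735 (98.4%) had a protein-coding record as host, 9 a long non-coding RNA, 2 a pseudogene and 1 another RNA. The best in a non-coding record was at chr16:50528613-50530301 in G730013B05Rik (284.76), followed by the pseudogene Gm14371 (150.61), Gm8350 (114.08) and Gm19426 (111.07). The members fell in 739 genes, and 8 genes held a pair of them: Maff, Map3k6, Mxi1, Nfix, Tyro3, Zbed3, Zfp787 and Zmiz1. In Zmiz1 the pair was unequal, with 821.23 near the start and 90.31 at chr14:25606598-25607595, well inside the gene.

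Members lay on the start side of their genes more often than on the end side. A start with its strand was listed for the host of 587 members. For 454 of these (77.3%, 73.7 to 80.7%) the nearer end of the host's record was the one where transcription begins. Limited to members whose host's own end lay within 5 kb, it was 425 of 547 (77.7%, 74.0 to 81.1%), and in records over 10 kb 339 of 417 (81.3%, 77.2 to 84.9%). Of the 587, 304 (51.8%) had a listed start of the host inside the interval. Those without one were 149 (25.4%) on the start side, 115 (19.6%) on the end side and 19 (3.24%) over 5 kb from both ends of the host's record, nearer to an end of another record. For the other 160 members no start of the host was listed.

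**Figure D1:**
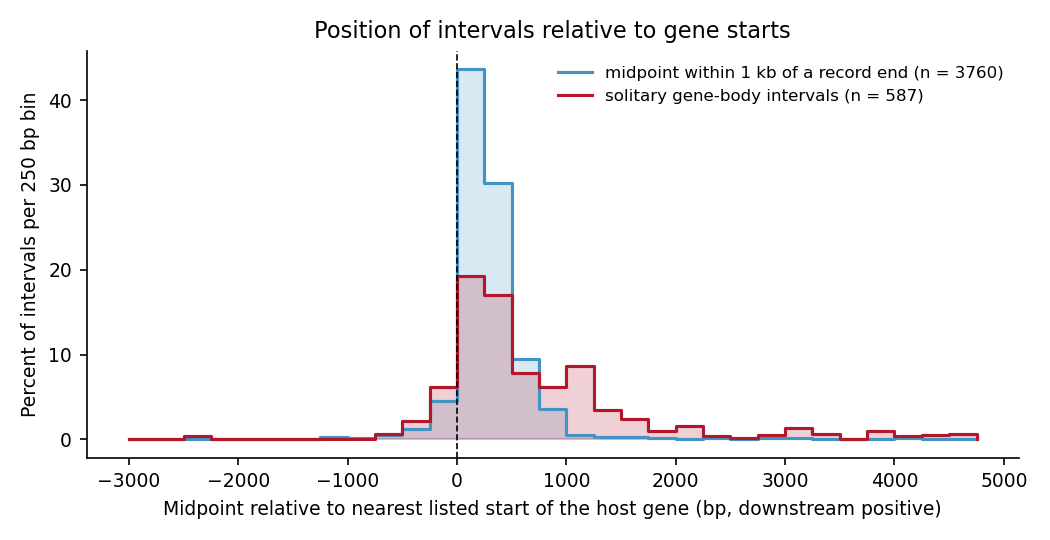
Distance from the midpoint of an interval to the nearest listed start of its host gene, in bins of 250 bp (x axis, bp, downstream positive), as percent of intervals (y axis), for 587 solitary gene-body intervals and 3760 intervals whose midpoint was at most 1 kb from a record end. Only intervals with a midpoint inside the record of a gene with a listed start are drawn. Those centred outside every record are left out, which keeps down the share upstream. Both groups peak just downstream of the start, and the solitary intervals have a broader shoulder, with 15.5% from 1 to 2 kb downstream against 1.28%.

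Measured from starts rather than from record ends, many members were close to a promoter. Of the 587, 213 (36.3%) had a midpoint 0 to 500 bp downstream of the nearest listed start of the host and 82 (13.97%) 500 to 1000 bp downstream. A further 91 (15.5%) lay 1 to 2 kb downstream, 42 (7.16%) 2 to 5 kb downstream and 66 (11.2%) upstream. For intervals within 1 kb of a record end the same shares were 73.9, 13.1, 1.28, 0.93 and 9.02% (n = 3760), as the plot of distance from the start shows. These 3760 are the ones with a midpoint inside the record of a gene with a listed start. Intervals centred outside every record have no host and were left out, which keeps down the share upstream of a start. The rule limits the distance to a record end, so a member whose record begins at its only start cannot have a midpoint within 1 kb of it.

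The 304 members that held a start of their own gene had the highest scores of the classes. Their median was 147.7 (134.5 to 162.0) and their median width 1231 bp. A wider interval can hold a start more easily, and score rose with width across members (Spearman's correlation 0.62). How far width sets this ranking of scores was not tested. The midpoint lay downstream of the start in 254 of 304 (83.6%), by a median of 225 bp over all 304. The median was 212 bp in the 3150 intervals near a record end that held a start of their gene. Both groups need a midpoint inside the host's record, which favours a midpoint downstream of the start. How far this sets these values was not tested. For 240 of the 304 the record ran on past the start with no other listed start further out. In 50 another listed start of the gene lay nearer to the record end, and in 14 the start held was the record end itself. Irf2bpl, Zmiz1, Ppp1r9b, Socs3, Ing1, Pfn1, Msl1, Hnrnpu and Septin11 were the strongest of this class. In Axin2 the interval (chr11:108920204-108922447) had its midpoint 3497.5 bp inside the record but 976.5 bp downstream of a listed start, and in Septin11 2642.5 bp inside but 221.5 bp downstream of one. In Pfn1 and Ing1 the midpoint lay upstream of the start that the interval held, at -411.5 and -604 bp from it.

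**Figure D2:**
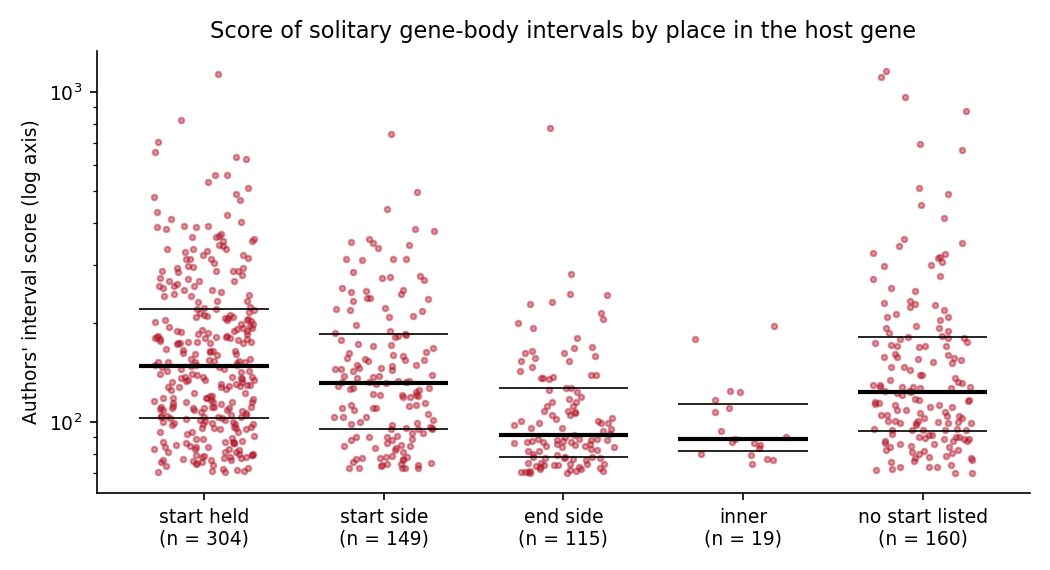
The authors' interval score (y axis, log scale) of each of the 747 solitary gene-body intervals, by place in the host gene: a listed start inside the interval, or, with none inside, on the start side, on the end side or over 5 kb from both ends, or no start listed. Each point is an interval, the thick line is the median and the thin lines are the quartiles. The medians run from 147.7 with a start inside the interval to 91.4 on the end side and 89.0 far from both ends.

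Another 149 members lay near the start-side end of the record and held no listed start of the host. Their median score was 131.4 (120.2 to 143.4) and their median width 1057 bp. In 135 of them (90.6%) the midpoint was downstream of the nearest listed start, by a median of 1058 bp in these 135. The rule puts the midpoint over 1000 bp inside the record, so a start at the start-side end must lie over 1000 bp upstream of it. Direction and distance are therefore in part set by the rule. The nearer edge of the interval was a median of 462 bp past the start (n = 135). Vav2 led with 745.36 and an edge 298 bp past the start, and Wnk1 had 498.96 and 177 bp. Plxnd1, a semaphorin receptor gene (443.45, 158 bp), Sox12 (383.94, 400 bp), the Cdc42 effector kinase gene Cdc42bpb (379.2, 149 bp) and the forkhead gene Foxc1 (337.19, 499 bp) also had an edge past the start. In the other 14 the nearest listed start was downstream. Tiam1, an activator of Rac (359.31), had a midpoint 2244 bp inside the start-side end of its record, while its nearest listed start lay 167465 bp past the interval's edge, further into the gene. Gse1 (343.38) and Bach2, a bZIP repressor gene (273.3), were alike in this, with starts 258075 and 177057 bp past the edge. Transcripts that begin at the outer ends of these records have no start in the table, so whether these intervals held one was not tested.

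On the end side, 115 members that held no listed start of the host lay near the place where the gene's record stops. They were weaker, with a median score of 91.4 (87.1 to 101.0), and a median width of 1113 bp. Their hosts were shorter, with a median record of 16087 bp against 34409.5 bp for hosts of members that held a start, and the midpoint lay a median of 9782 bp downstream of the nearest listed start. Jund stood far above the others with 780.89. Its record is 2878 bp long, and the interval of 2309 bp began 578 bp past the listed start and ran to the far end. Dot1l, the histone H3 lysine methyltransferase gene, came next with 280.96 (chr10:80790586-80792962), 3687 bp from the end of a record of 40361 bp. The zinc finger genes Zfp316 (245.01) and Zfp513 (241.97), the tetraspanin gene Cd63 (230.42) and Notch4, a Notch receptor gene (227.39, chr17:34586475-34588226), followed. The Notch4 interval lay 1192.5 bp from the end of its record and 23055.5 bp past its start. The 19 far from both ends of their host and holding no listed start had a median score of 89.0 (80.3 to 117.0). Pax5, a B cell factor gene (195.81), and Gnb5, a G protein subunit gene (178.77), were the highest of these 19. Over all classes, 54 of 747 members lay over 5 kb from both ends of the host's record. The rest of the 54 held a listed start or had none listed.

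The 160 members whose host had no listed start had a median score of 123.2 (111.1 to 132.3), between those of the start side and the end side. They included Tsc22d2, Gata6, Arhgef17, Mafa, Nr5a1, Socs2, Cpeb2 and Fzd2, and 24 of them lay on chromosome 18, whose starts were not used here. Tsc22d2, Arhgef17, Mafa, Nr5a1 and Fzd2 therefore have a position within their record but no side. The Socs2 interval held 2 listed starts outside its own gene. It was 1 of 3 members that held a start of another gene and no listed start of their own, beside Gm9997 (164.18) and Dennd4a (83.43).

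**Figure D3:**
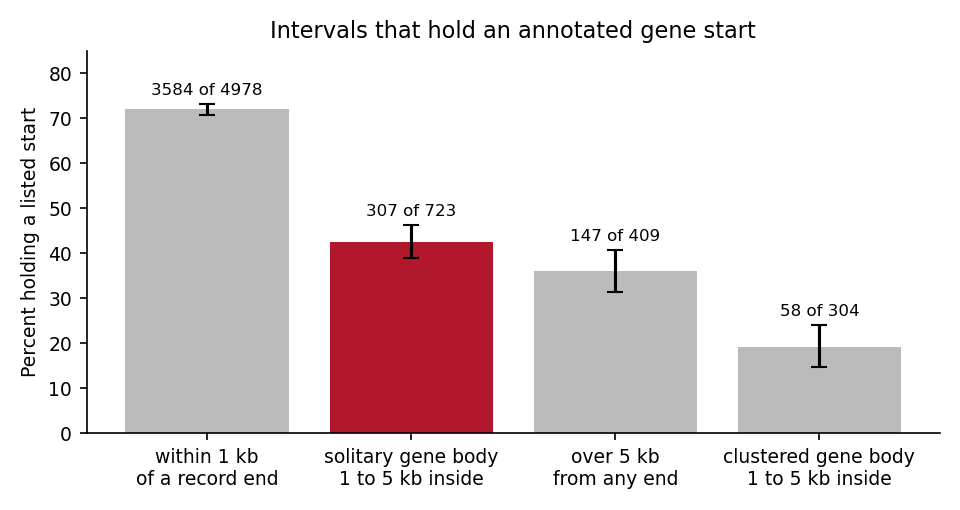
Percent of intervals that hold a listed start of any gene (y axis), for intervals within 1 kb of a record end, solitary gene-body intervals, intervals over 5 kb from any end, and gene-body intervals 1 to 5 kb inside with a neighbour within 5 kb. Bars start at 0 and error bars are 95% Clopper-Pearson intervals. Solitary gene-body intervals (307 of 723) lie between those near a record end (3584 of 4978) and those with a neighbour (58 of 304).

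Solitary members held an annotated start more often than gene-body intervals at the same depth that had a neighbour. Leaving out chromosome 18, 307 of 723 members held a listed start of any gene (42.5%, 38.8 to 46.2%), against 58 of 304 of the clustered ones (19.1%, 14.8 to 23.95%). The share was 35.9% (31.3 to 40.8%) over 5 kb from any end and 72.0% (70.7 to 73.2%) within 1 kb of one. Over the whole list it was 4096 of 6448 (63.5%, 62.3 to 64.7%), so members held a start less often than the list did. The intervals of the solitary and clustered shares did not overlap, while those of members and of intervals over 5 kb from any end did. A clustered interval can have a neighbour that holds the start, and how far this sets the difference was not tested.

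Starts under members were about as rich in CG as starts under intervals near record ends, and richer than starts under no interval. The median ratio of observed to expected CG was 0.82 (0.80 to 0.85) over the 353 protein-coding starts under members (306 genes) and 0.85 (0.84 to 0.85) over 4257 starts under intervals near record ends. Over 16190 starts under no interval it was 0.40 (0.39 to 0.41). GC content was 65.7, 65.3 and 53.7%, and the share of starts with a ratio of at least 0.6 was 89.0, 89.6 and 35.8%. The nearest listed start of members on the start side, outside the interval, had a median of 0.74 (0.68 to 0.79, n = 149), and that of members on the end side 0.64 (0.50 to 0.71, n = 115).

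**Figure D4:**
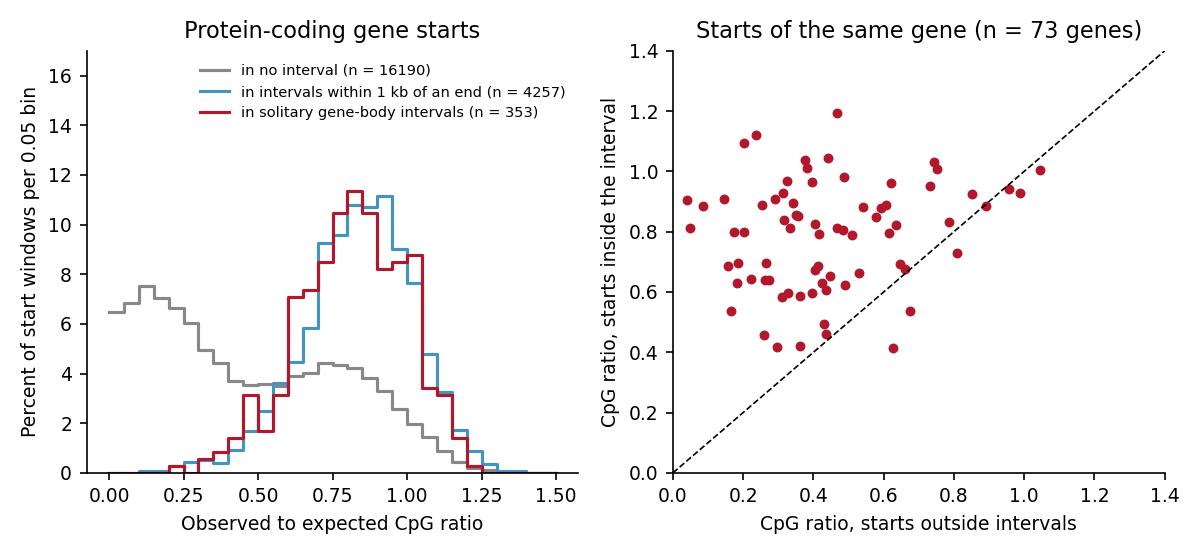
Left, ratio of observed to expected CG in windows of 300 bases at protein-coding starts (x axis) as percent of windows per bin of 0.05 (y axis), for starts in no interval, in intervals within 1 kb of a record end and in solitary gene-body intervals. Right, for 73 host genes, the mean ratio of starts inside the interval (y axis) against that of starts outside any interval (x axis), with the line of equality dashed. In 66 genes the point lies above the line.

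Within the same gene, the start under the interval was mostly the one richer in CG. There were 73 hosts with a start inside the interval and another outside any interval. The ratio was higher at the start inside in 66 of them (90.4%, 81.2 to 96.1%), with medians over genes of 0.81 inside and 0.41 outside and a GC content of 67 and 56%. Pard3, a cell polarity gene, had 0.91 inside and 0.29 outside, and Rab11fip3, a recycling endosome gene, 1.12 and 0.24. Clasp2, a microtubule plus-end protein gene, had 1.01 and 0.38. At Ing1 the mean over its 4 starts outside was 0.85, against 0.92 inside. Hnrnph1, Arrdc3, Tent4b, Lmtk3, Per1, L3mbtl3 and Tbc1d1 had the higher ratio outside, among them the circadian gene Per1 with 0.54 inside and 0.68 outside.

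The GC box and the Ets motif were more frequent at starts under members than at starts under no interval, and the TATA and GATA motifs less frequent. Motifs were searched by exact letters on both strands of the same windows, and a match is a description of the letters only. GGGCGG, the GC box bound by Sp and Klf factors, was in 75.4% of starts under members, 76.2% of those near record ends, 37.8% of those under no interval and 46.7% of all protein-coding starts. CCGGAAG, bound by Ets factors, was in 15.3% (11.7 to 19.5%) under members, below the 22.5% (21.2 to 23.7%) near record ends and above the 8.78% under no interval (11.7% of all). TTCCCGCC, an E2F site, whose reverse strand GGCGGGAA can overlap a GC box, was in 2.83% (1.37 to 5.15%), 5.36% and 2.21%. TATAAA was in 7.37% (4.87 to 10.6%), 5.14% and 14.9%, and AGATAA, bound by GATA factors, in 4.82, 3.59 and 11.5%. CCAAT was in 32.3, 35.0 and 39.6%, and ATGGCGGC, bound by Yy1, in 7.65% (5.10 to 10.9%), 7.07% and 1.87%. The GC box, Ets and Yy1 letters contain CG, while TATAAA and AGATAA consist mostly of A and T. Starts under members and under no interval also differed in GC content (65.7 against 53.7%). How far base composition sets these differences was not tested.

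Most hosts had no second interval anywhere in the gene. In 653 of 727 protein-coding hosts (89.8%) the member was the only interval with its midpoint in the record. The rule allows no other interval within 5 kb, which leaves little room for a second one in a short record. The host record was under 10 kb for 166 of 747 members. The same share was not computed for other genes that hold an interval. In 366 (50.3%) no interval, the member included, reached the 1 kb either side of an end of the record. In 324 an interval reached the stretch at the near end, which was another interval than a member in 9, since the gap of 5 kb nearly forbids it. At the far end 48 hosts (6.60%, 4.91 to 8.66%) had another interval. The next interval lay a median of 65264 bp from a member. Hosts were longer than protein-coding records over 2 kb in general, with a median of 30687 bp against 21324.5 bp. The rule needs a midpoint over 1 kb from every record end, so a record near 2 kb has little room for a member. How far this sets the difference in length was not tested.

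The share of genes with a member varied between gene lists, and many lists had few hosts. Of 19190 protein-coding records over 2 kb, 727 held a member (3.79%), and of 13889 over 10 kb, 567 (4.08%). Over 35 gene lists, matched by symbol and set beside these shares with no test, the highest were the Notch pathway with 5 of 29 (17.2%, 5.85 to 35.8%) and forkhead and Sox factors with 9 of 58 (15.5%, 7.35 to 27.4%). Imprinted genes had 4 of 30 (13.3%, 3.76 to 30.7%) and Wnt and Hedgehog pathway genes 8 of 79 (10.1%, 4.47 to 18.98%). With records over 10 kb only, the forkhead and Sox share was 4.55% (1 of 22), that of bHLH and bZIP factors 4.29% (3 of 70) and that of Wnt and Hedgehog genes 5.17% (3 of 58, 1.08 to 14.4%), near the 4.08% of all. Nuclear receptors and coregulators had 3 of 88 (3.41%, 0.71 to 9.64%). At the other end, ion channels and transporters had 25 of 836 (2.99%), oxidative phosphorylation genes 2 of 86 (2.33%), and olfactory, vomeronasal and taste receptors 0 of 300, which allows a share of up to 1%.

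**Figure D5:**
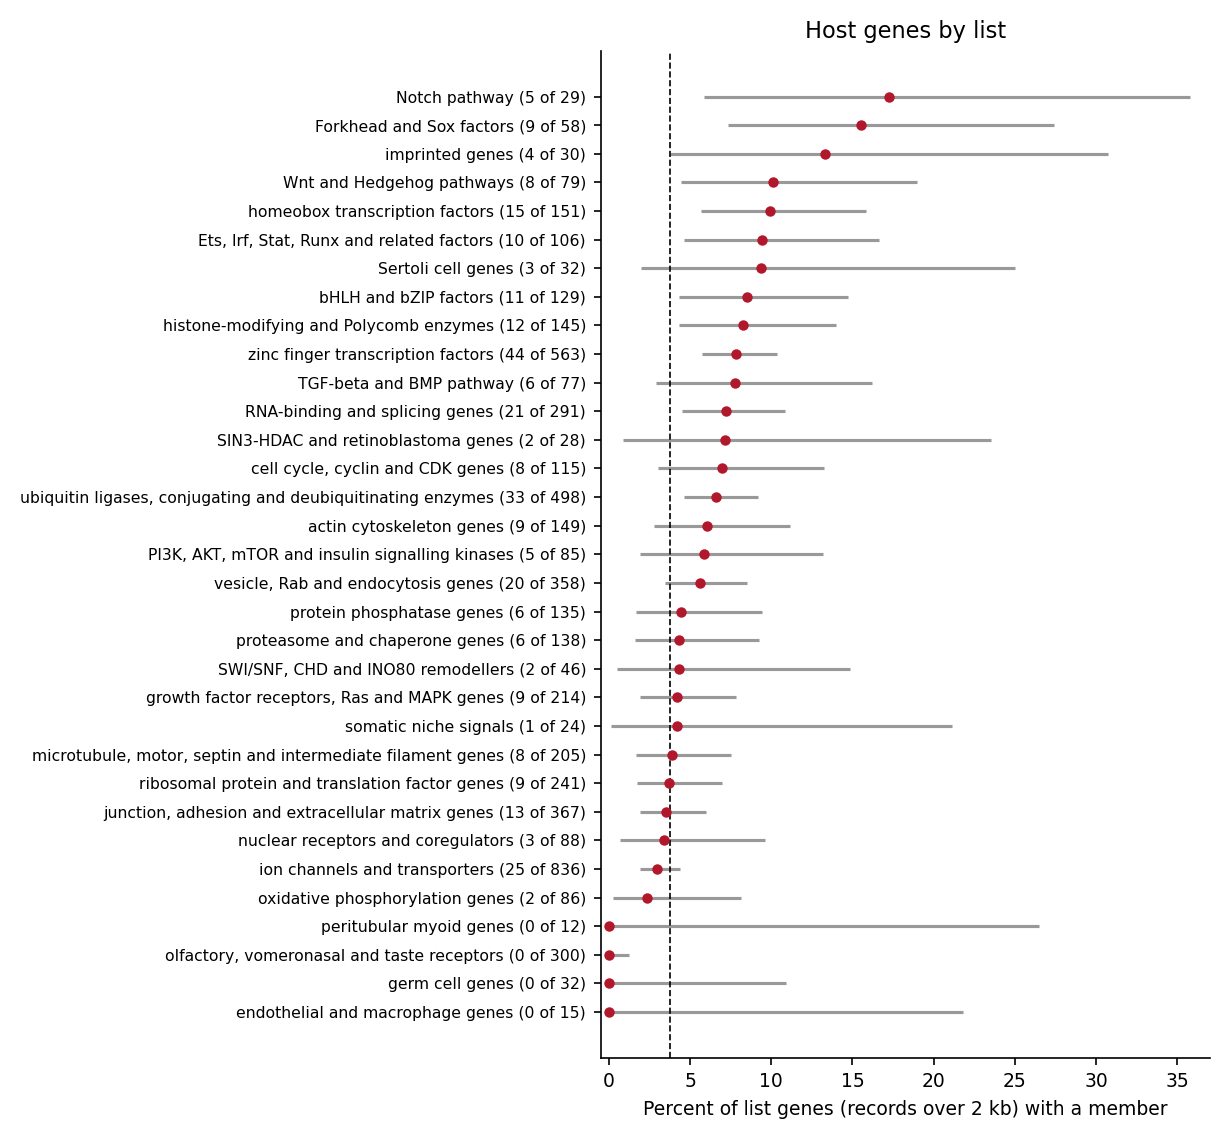
Percent of the genes of each list, with records over 2 kb, that hold a solitary gene-body interval (x axis), by list, with hosts of genes tested in brackets. Points are shares, bars are 95% Clopper-Pearson intervals and the dashed line is the share of all protein-coding records, 3.79%. The Notch pathway and forkhead and Sox factors have the highest shares, many bars cross the line, and receptors of smell and taste are at 0.

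Homeobox genes held members in 15 of 151 (9.93%, 5.67 to 15.9%), with a median score of 117.9 against 126.0 for all members. Among them were Tshz2 (143.44) and Nkx2-3 (138.72), and the Hox genes Hoxb7, Hoxb3, Hoxd3, Hoxa10 and Hoxd4 had 131.22, 100.57, 83.89, 81.69 and 77.16. Of 9 members in homeobox hosts with a listed start, 0 held it, which allows a share of up to 33.3%. With records over 10 kb only, homeobox genes had 5 of 67 (7.46%, 2.47 to 16.6%), an interval that covers the 4.08% of all such records. Zinc finger factors held members in 44 of 563 (7.82%, 5.74 to 10.3%, median score 127.5), led by Gata6, Hivep2 (393.17), Patz1 (313.24) and Zfp827 (247.33). Among bHLH and bZIP factors, 11 of 129 (8.53%, median score 151.8) held one, with Mafa, Jund, the Notch target gene Hes7 (370.51) and Mxi1, a Myc antagonist gene (312.89), first. Forkhead and Sox members had a median of 178.7 and included Sox12, Foxc1, Sox13 (309.16), Sox8 (222.85), Sox10 (178.72), Foxa2 (111.55), Sox2 (99.1), Foxl2 (88.1) and Foxb1 (85.75). The list of Ets, Irf, Nfi and related factors had 10 of 106 (9.43%, median score 123.3), where Irf2bpl was matched by its symbol although it is a corepressor gene, followed by Rfx3 (210.62), Nfib (192.61) and Lef1 (159.75).

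In zinc finger hosts the member lay on the end side more often than in other hosts. Of 30 members whose zinc finger host had a listed start, 14 (46.7%, 28.3 to 65.7%) lay there, against 100 of 554 members in other protein-coding hosts (18.1%, 14.9 to 21.5%). Among them were Zfp316, Zfp513, Zfpm1 (161.92), Zfp853 (152.74), Gli2 (99.63) and Egr2 (91.37). In records of at most 10 kb it was 7 of 11 members against 30.2% of all members in such records, and in longer records 7 of 19 (36.8%, 16.3 to 61.6%) against 16.5%. Like shares were seen in homeobox hosts, 4 of 9 (44.4%, 13.7 to 78.8%), and in proteasome and chaperone hosts, 2 of 5 (40%, 5.27 to 85.3%). On the end side were 1 of 24 members in ubiquitin system hosts, 0 of 17 in vesicle hosts and 0 of 14 in RNA-binding hosts. Zinc finger genes of this kind often encode the fingers in a long last exon, but exons were not used here, so whether the intervals lay over them was not tested.

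In RNA-binding and vesicle hosts the member mostly held the start, as it did in some lists with fewer hosts. RNA-binding and splicing genes held members in 21 of 291 (7.22%, 4.52 to 10.8%, median score 170.4), and 13 of 14 members in those with a listed start held it (92.9%, 66.1 to 99.8%), against 304 of 584 members in protein-coding hosts (52.1%, 47.9 to 56.2%). Hnrnpu, Cpeb2, Srsf1 and Mex3c (416.01) had the highest scores, and Sfpq, a paraspeckle protein gene (333.64), Hnrnph1 (250.62) and the methyltransferase gene Mettl3 of the m6A mark (106.55) held a start. Vesicle and endocytosis genes had 20 of 358 (5.59%, 3.45 to 8.50%), an interval that covers the 3.79% of all genes. In those with a listed start, 14 of 17 members held it (82.4%, 56.6 to 96.2%), led by Snx30 (294.69) and Rab11fip3 (292.74). Ubiquitin system genes had 33 of 498 (6.63%, 4.60 to 9.18%), with Socs2, Socs3, Fbxl20 (363.89) and Trim27 (243.19) first. There 16 of 24 members held the listed start (66.7%, 44.7 to 84.4%), an interval that covers the 52.1% of all. Cell cycle genes had 8 of 115 (6.96%, 3.05 to 13.2%), an interval that also covers the 3.79% of all genes. Among them were the kinase gene Cdk13 (404.52), the D-type cyclin genes Ccnd3 (293.21) and Ccnd2 (180.3), and the p21 gene Cdkn1a (144.72). Ribosomal and translation factor genes had 9 of 241 (3.73%), close to the share of all genes, with Eif4g3 (391.47) and Rpl38 (319.98) highest.

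Members in signalling genes covered receptors, ligands and inhibitors. In the Notch pathway they were at the ligand genes Dll1 (184.91) and Jag2 (162.05), the receptor gene Notch4, the coactivator gene Maml1 (262.07) and the ubiquitin ligase gene Dtx1 (354.96), and Dll1, Maml1 and Dtx1 held a start. In the Wnt and Hedgehog list they were at the Frizzled receptor genes Fzd2, Fzd7 (353.01), Fzd5 (273.89) and Fzd1 (175.12), the inhibitor genes Axin2 and Apc2 (87.05), the R-spondin receptor gene Lgr6 (112.0) and Gas1, a Hedgehog co-receptor gene (329.95), with a median score of 301.9. TGF-beta and BMP pathway genes had 6 of 77 (7.79%, 2.91 to 16.2%), at the decoy receptor gene Bambi (223.48), the ligand gene Tgfb2 (197.69), the receptor gene Acvr2b (162.91), Ltbp4 (78.03), Gdf15 (75.15) and Skor1 (73.49). Actin genes had 9 of 149 (6.04%, 2.80 to 11.2%, against 3.79% of all genes), with Pfn1 far above Actb, the cytoplasmic actin gene (271.74).

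Of the chromatin genes, histone-modifying and Polycomb enzymes had members in 12 of 145 (8.28%, 4.35 to 14.01%, median score 125.5). Among them were the methyltransferase genes Kmt2d (391.86) and Dot1l (280.96), and Kdm6b had a member with 132.28 beside an interval further inside. In the SIN3-histone deacetylase and retinoblastoma list 2 of 28 genes held members (7.14%, 0.88 to 23.5%), an interval that covers the 3.79% of all genes. They were Ing1 and Mxi1, the latter with a pair (312.89 at chr19:53313012-53314139 and 151.78 at chr19:53329337-53330573). Arid4b itself had no interval in its record, and the single interval in Arid4a lay within 1 kb of an end. No interval of Ptch1, Gata4, Rreb1, Midn, Tnrc18 or Smad7 met the rule.

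Of 32 Sertoli cell genes 3 (9.38%, 1.98 to 25.02%) held a member, Nr5a1 and the related Sox8 and Sox10. The Sox8 interval was 4787 bp wide, nearly the length of its record (4794 bp). Of 24 somatic niche signals 1 did (4.17%, 0.11 to 21.1%), the growth factor gene Igf2 (74.93, chr7:142660436-142661344). No member lay in 32 germ cell genes, 12 peritubular myoid genes or 15 endothelial and macrophage genes, which allows shares of up to 9.38, 25 and 20%, all above the 3.79% of all genes. The imprinted hosts were Ascl2 (154.26), Dlk1 (112.43), Mest (105.34) and Igf2. Mest and Igf2 held a start inside their records, and the Igf2 midpoint lay 381 bp downstream of it and 5926 bp from the nearer end of the record.

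At the limits of the rule, the members just over 1000 bp from a record end were in Jag2 (1001.5 bp), Gm19426 (1003.5 bp) and Sox10 (1005 bp), and the intervals just not over it were in Ankrd63 (1000 bp), Kcnk4 (999.5 bp) and Ythdc2 (999 bp). Just within 5000 bp were Gramd1a (4994 bp), Spdya (4993 bp) and Prr14 (4991.5 bp), and just past it Ism1 (5025 bp), Atg4c (5026 bp) and Ece1 (5040 bp). By the gap to the next interval, Pak6 (5082 bp), Apc2 (5143 bp) and Arhgef25 (5373 bp) were just inside and Brpf3 (4855 bp), Tsc22d4 (4853 bp) and Zbtb42 (4829 bp) just outside. Distances to the nearest record end had a median of 1675 bp, with 469 of 747 at most 2 kb, and 357 members (47.8%) had an edge within 1 kb of that end, so that a rule on edges would place them at gene ends. The lowest scores were in Bicd2 (70.06), Atp8b2 (70.27) and Eya1 (70.28). After Arhgef17 and Sox8 the widest was in Ntn3 (4687 bp), and the narrowest were in Ajap1 (511 bp), Fam171a1 (566 bp) and Tet3 (566 bp). For 121 members the nearest end belonged to another record than the host's, most often a long non-coding RNA (75), a protein-coding gene (28) or a microRNA (7).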

How the data were processed

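ARID4B ChIP and input DNA were each sequenced in 1 library. Reads were processed with BWA and MACS on mm9, per the submitters' processing notes. Their versions, parameters and filters are not stated in the labels or the file. For the ChIP library the authors deposited interval positions, under a name that gives mm10. The authors' value for each interval, made by them before deposit, is taken as a score of unstated scale. Values of the input were not analysed here. Listed starts inside an interval numbered 5408 of 32851 in place and 171 or 152 with intervals moved by 5000 bp, so positions were read as GRCm38 (mm10), counting from 1.

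Midpoints were set against 49554 RefSeq gene records of GRCm38.p6, and where a midpoint lay in 2 records (49 members) the host was the protein-coding one or, of like types, the one with the nearer end. Starts, strand and sequence came from RefSeq's table of 250 bases before to 50 after each start (17274 of 21631 protein-coding genes matched; none used on chromosome 18). A start was held when its base lay inside the interval. The CG ratio is the count of CG times the window length over the product of the counts of C and G. Gene lists were matched by symbol or symbol pattern, so a few genes have another function than the list's name says. A few genes and lists are not reported here. The members and lists were chosen with earlier results of these data known. Named genes were the 25 best-scoring members in protein-coding records, the extremes by score and width, those at each limit, up to 4 best of each list, hosts in the testis, niche and SIN3 lists, and 9 genes as checks of membership. Other genes, such as Plxnd1, Cd63, Zfp316, Zfp513, Gse1, Pax5, Gnb5 and those of the comparison of starts within a gene, were named after their values were seen.

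Shares carry exact Clopper-Pearson intervals and medians an exact interval from order statistics. Where a share was 0, its limit in the text is that of 3 counts, and the bar in the plot of lists is the Clopper-Pearson one. The rule was tested on simulated intervals. Python 3.11.15, numpy 2.4.6, pandas 2.3.3, scipy 1.17.1 and matplotlib 3.10.9 were used. Alternatives changed each limit of the rule, the records, the scores kept, the window at a record end and the least record length.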

Additional observations from a re-analysis of the deposited data

How the results depend on the processing

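Over 8 results and 35 lists, 76 of 101 values under an alternative stayed within the counting interval of the reported value (for the number of members, within 1.5 times it) and 25 did not. The number of members was 702 with an upper limit of 4000 bp, 691 with a gap over 10000 bp, 1061 without a limit on the gap, 773 with protein-coding records and 727 with the whole interval inside 1 record. With a lower limit of 2000 bp there were 278 members, with a median score of 115.0, a median distance of 3036.5 bp, 14.1% of hosts with an interval at an end and 70.3% on the start side. With 500 bp these were 1648, 134.2, 920.8 bp, 74.6% and 85.9%, and 57.1% held a start of the host. Without a limit on the gap, 59.5% of hosts had an interval at an end and 43.2% of members held a start. With protein-coding records only, 100% lay in such a record by construction. Intervals scoring above the median of the list gave 436 members, a median score of 189.8, a width of 1365.5 bp, a distance of 1527.5 bp, 57.2% of hosts with an interval at an end, 87.6% on the start side and 59.0% holding a start. The share of hosts with an interval at an end, 49.7% as reported, was 6.60% by midpoints and 21.3% with 500 bp windows. Among lists, bHLH and bZIP factors (4.29%) and forkhead and Sox factors (4.55%) moved in records over 10 kb. Where no construction of the alternative gives it, the cause was not tested.

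The settings for the share holding a start, and all but 1 for the start side, were added after seeing the data. No paired analysis was possible because each group had 1 library. There is no replicate to leave out. The depth of the libraries is unknown, so weak intervals missed by the authors' threshold cannot be counted, and a gene without an interval is not shown to lack ARID4B.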

Other observations

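MicroRNA hairpins near members were looked up in RefSeq's table. There were 19 within 5 kb of a member and none inside one. The rule keeps midpoints over 1 kb from the end of any record, microRNA records included. This leaves little room for a hairpin inside a member. The nearest were Mir1956 at Eif4e, 1055 bp from the edge of the interval, and Mir6402 at Elavl2, 1090 bp. Mir130a lay 1344 bp from the member in Gm19426. Mir10b lay 2320 bp from the member in Hoxd4, Mir196b 3729 bp from that in Hoxa10, and Mir335 2644 bp from that in Mest, an imprinted gene that hosts this microRNA.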
